A study of Mus musculus with 4 samples.

Results

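Recipient cells of the mouse ankle synovium were described over 4 stages of serum-transfer arthritis. They were the 1191 of 14451 kept cells that bound the CD45.2 antibody, and they were chosen by measured values: at least 3 CD45.2 antibody counts and at least 2-fold more CD45.2 than CD45.1 counts after 1 was added to each. Cells with at least 300 detected genes and at most 10% mitochondrial counts had been kept before that choice. The same rule in the other direction gave 11414 donor cells for comparison. Gene values below come from the 1161 recipient and 11351 donor cells in which Col1a1, Col1a2, Col3a1 and Dcn, collagen and matrix genes of fibroblasts, made up under 1% of the counts.

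The mice were bone marrow chimeras on the C57BL/6 (B6) background, in which CD45.2 recipients carried CD45.1 donor marrow and the ankle had been shielded from irradiation. Arthritis was given by serum of K/BxN transgenic mice, which holds antibodies that cause a passing joint inflammation, and the untreated baseline mice received none. One library was made for each stage: baseline cells came from day 0, cells of the peak from day 7, those of the plateau from day 14 and those of resolution from day 56. They had been sorted as live CD45+CD11b+ cells negative for the granulocyte markers Ly6G, SiglecF and CD177 and for Ly6C, MHC class II and CD64. They were read by CITE-seq, which counts the RNA and the bound antibodies of each cell by unique molecular identifiers (UMIs). The names of the peak, plateau and resolution samples hold the word Clo-lip, and that of the baseline sample does not. The word is not explained in the labels, so its part and the part of the stage cannot be told apart. The number of mice in each library is not given. The antibody also does not tell cells that lived in the joint before the transplant from cells that recipient blood-forming tissue made later, since shielded bone keeps its marrow.

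Synovial tissue holds macrophages that live in it for long periods, line the joint space and take up dying cells, and it also receives monocytes from blood during inflammation. Resident tissue macrophages of many organs carry the phosphatidylserine receptor Tim4, the complement receptor Vsig4 and the hyaluronan receptor Lyve1, whereas cells that have come from monocytes lately carry the chemokine receptor Ccr2 and MHC class II. Osteoclasts, which dissolve bone, form by fusion of cells of the monocyte and macrophage lineage.

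Each antibody is read through a DNA barcode, and the origin of every cell rests on 2 of them. These barcodes are shown with those of the antibodies that the surface results turn on, in the order the deposited antibody list gives the bases, in capitals throughout because the whole barcode names the antibody.
CD45.1: CCTATGGACTTGGAC
CD45.2: CACCGTCATTCAACC
Tim4: TGCTGGAGGGTATTC
CD163: GAGCAAGATTAAGAC
FrB: CTCAGATGCCCTTTA
I-A-I-E: GGTCACCAGTATGAT
CD14: AACCAACAGTCACGT
CD61: TTCTTTACCCGCCTG
CD71: ACCGACCAGTAGACA
The CD45.1 and CD45.2 barcodes differ at 11 of their 15 positions, and no pair among the 92 antibodies differs at fewer than 4.

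The number of recipient cells was 182 at baseline, 195 at peak, 192 at plateau and 622 at resolution. Their median CD45.2 count was 46, 75, 61.5 and 21 in the same order, against a median CD45.1 count of 0, 2, 1 and 1. Near the boundary of the rule, 12, 12, 16 and 47 members had a log2 ratio of CD45.1 to CD45.2 between -1.5 and -1, and 5, 15, 7 and 14 cells lay just outside it, between -1 and -0.5. At least 10 counts of both antibodies were found in 46, 127, 46 and 22 kept cells, and 7, 33, 17 and 8 of these fell among the recipients. No doublet caller was run. Among kept cells, 20 barcodes occurred in more than 1 library, and 4 recipient cells had such a barcode. The median recipient cell held 8190, 8792, 8010 and 5864 gene UMIs, and the antibody median was lowest at resolution, at 526.5 against 1128 at baseline.

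Recipient cells were a minority of the sorted cells at every stage, and their share was lowest at peak. They made up 17.0% of kept cells at baseline (182 of 1071, exact 95% Clopper-Pearson interval 14.8% to 19.4%), 3.28% at peak (195 of 5941, 2.84% to 3.77%), 6.79% at plateau (192 of 2828, 5.89% to 7.78%) and 13.5% at resolution (622 of 4611, 12.5% to 14.5%). Among cells given an origin, the shares were 19.0%, 3.42%, 7.62% and 18.2%. The first and last of these changed order where at least 10 antibody counts were asked for, at 21.8% for baseline and 26.6% for resolution. With antibody counts thinned to 200 per cell they kept it, at 26.4% and 20.4%. At resolution 1192 of the 4611 kept cells were given no origin, and the donor cells had a median of 9 CD45.1 counts. The minimum of 10 counts took the donor cells of that stage from 2797 to 1310 and the recipient cells from 622 to 475. The donor cells of the same libraries numbered 777, 5512, 2328 and 2797. All intervals here and below cover counting error only. With 1 library for each stage the spread between animals is not known, no difference between stages was tested, and a share of sorted cells does not tell fewer recipient cells from more donor cells.

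**Figure D1:**
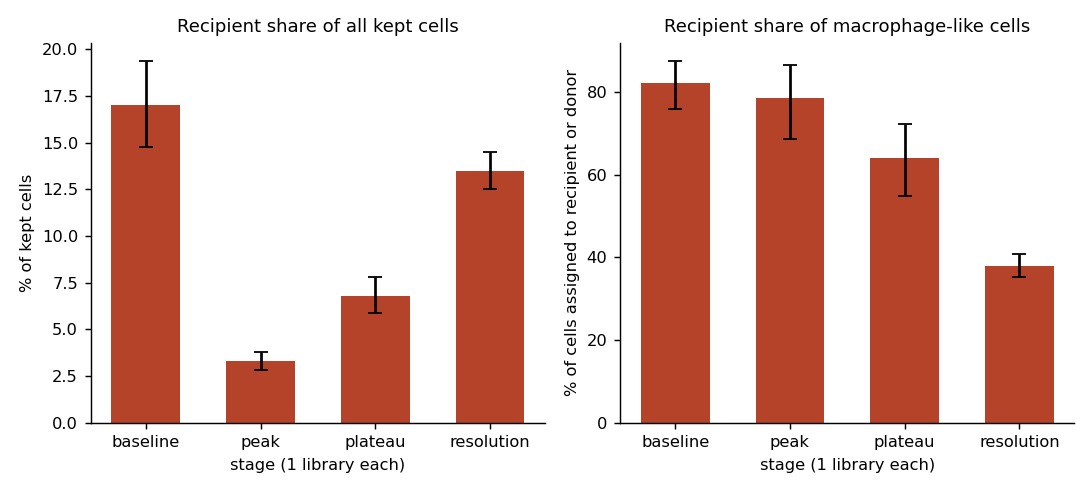
Recipient share of all kept cells (left) and of the macrophage-like cells that were given an origin (right), in percent, for the 4 stages; bars start at 0 and error bars are exact 95% intervals. The share of kept cells is lowest at peak (3.28%), while the share of macrophage-like cells is lowest at resolution (38.0%, or 57.3% with at least 10 counts and a 4-fold ratio of the antibodies).

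Macrophage-like cells were the most frequent recipient cells at every stage. The cells of all libraries fell into 19 clusters by their genes, with antibodies left out, and 1 of them was called macrophage-like because 14 of 15 markers of that type marked it, with Vsig4, Lyve1, Gpr34 and the folate receptor gene Folr2 in the lead. Of the recipient cells, 84.7% were macrophage-like at baseline (149 of 176, 78.5% to 89.6%), 36.6% at peak (70 of 191, 29.8% to 43.9%), 43.5% at plateau (80 of 184, 36.2% to 51.0%) and 76.4% at resolution (466 of 610, 72.8% to 79.7%). The donor cells held 4.16%, 0.347%, 1.95% and 27.2% of such cells. Cluster sizes are a description here, because the genes that separate the clusters also differ between the stages and the origins.

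Within the macrophage-like cluster, the recipient share stood at 82.3% at baseline (149 recipient and 32 donor cells, 76.0% to 87.6%), 78.7% at peak (70 and 19 cells, 68.7% to 86.6%) and 64.0% at plateau (80 and 45 cells, 54.9% to 72.4%). At resolution it was 38.0% (466 and 759 cells, 35.3% to 40.8%). With at least 10 counts and a 4-fold ratio of the antibodies it was 57.3% at resolution (339 of 592 cells). At the other stages that stricter rule gave 84.8%, 81.1% and 66.1%. At resolution its minimum of 10 counts fell unequally on the origins. Donor macrophage-like cells had a median of 8 CD45.1 counts there, against 21 CD45.2 counts in recipient ones. With antibody counts thinned as above, donor cells stayed more numerous at resolution. Which origin was more numerous there thus depended on the rule of origin, and the stricter rule is not an even comparison. A finer clustering divided the macrophage-like cells into a group led by Vsig4, Timd4, S100b and Lyve1 and a group led by Aqp1, a water channel gene, and Fxyd2, a regulator of the sodium pump. The Timd4 group held 81.9%, 68.1%, 62.8% and 54.9% of the recipient cells of the 2 groups from baseline to resolution, and 22.6%, 47.1%, 18.4% and 6.46% of the donor cells. The Aqp1 group held the rest, 45.06% of recipient and 93.5% of donor cells at resolution.

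The other recipient cells differed in kind from stage to stage. Osteoclast-like cells, marked by 10 of 11 osteoclast genes, were 1 cell at baseline, 43 at peak (22.5% of recipient cells, 16.8% to 29.1%), 56 at plateau (30.4%, 23.88% to 37.6%) and 2 at resolution. Recipient cells were 19.9% of all osteoclast-like cells with an origin at peak and 13.9% at plateau. These cells were deep, with medians of 30854 and 30406 UMIs, so that they gave 45.7% and 62.2% of all recipient gene UMIs at peak and plateau. At least 10 CD45.1 counts were found in 7 of the 43 and 5 of the 56.

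A cluster led by the mitosis genes Birc5, Ccna2 and Hmmr, which was given no cell type, held 2, 19, 13 and 7 recipient cells. Mast-like cells numbered 5, 9, 1 and 10 among recipients and 0, 1, 0 and 0 among donors. A further unnamed cluster, led by Rnase2a, the elastase gene Mmp12 and the lectin gene Mgl2, held 3, 1, 1 and 63 recipient cells, or 10.3% at resolution, beside 27, 8, 7 and 860 donor cells. Of all 1092 cells of that cluster, 1044 came from the resolution library. Monocyte-like recipient cells were few: the larger cluster of classical monocyte-like cells held 5, 2, 3 and 29 recipients against 284, 685, 142 and 421 donors, and the nonclassical cluster 5, 2, 0 and 12 against 280, 36, 20 and 516. Neutrophil-like cells numbered 3, 1, 0 and 2, although the sort removed Ly6G+ cells.

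**Figure D2:**
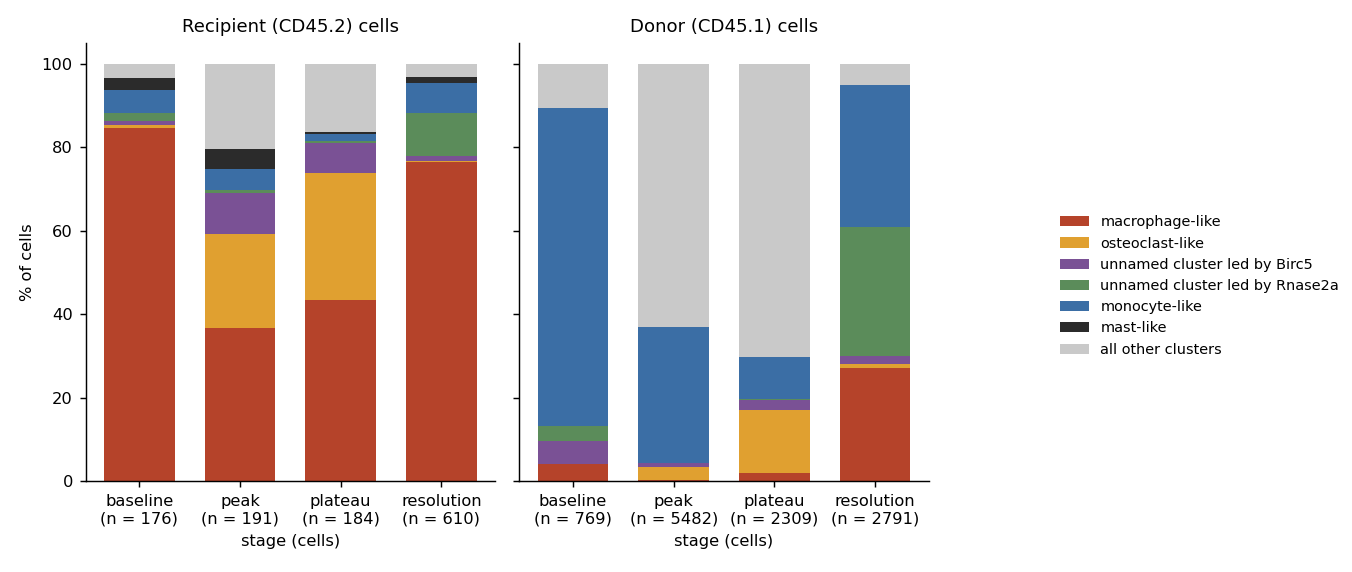
Percent of recipient (left) and donor (right) cells in each cell class for the 4 stages, as stacked bars with the number of cells under each. Macrophage-like cells are 84.7% of recipient cells at baseline and 36.6% at peak, and osteoclast-like cells are 22.5% at peak and 30.4% at plateau.

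The summed RNA of all recipient cells shifted from macrophage genes to osteoclast genes at peak and back at resolution. Levels are counts per 1000000 gene UMIs (CPM) of the summed cells, with library totals scaled by the trimmed mean of M values (TMM) method, and a gene was counted as different at 2-fold or more among genes with at least 30 UMIs in the 2 sums. Of 8731 such genes, 1131 (13%) were higher and 880 (10.1%) lower at peak than at baseline. With plain totals the split turned, to 853 higher and 1171 lower, and the median log2 ratio of all genes moved from 0.07 to -0.10. From peak to plateau 121 of 9073 genes (1.33%) were higher and 279 (3.08%) lower, but 456 were higher and 375 lower by the mean over cells of each cell's CPM. Between plateau and resolution 1503 of 9607 (15.6%) were higher and 1250 (13%) lower, and between resolution and baseline 307 of 9153 (3.35%) were higher and 165 (1.8%) lower at resolution.

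Every tested osteoclast gene was higher at peak than at baseline (10 of 10 at 2-fold or more, median log2 ratio 6.25). Ctsk, the collagen-cleaving cathepsin of osteoclasts, stood at 167.6 CPM at baseline, 11370 at peak, 15680 at plateau and 526.6 at resolution, 67.8-fold higher at peak than at baseline (60.9 to 75.8). Acp5, the tartrate-resistant acid phosphatase, stood at 64.8, 4822, 8378 and 167.8 CPM, and the matrix protease gene Mmp9 at 2.03, 3313, 4316 and 96.6 CPM. Both were highest at the 2 inflamed stages. Mmp9 was still 47.7-fold higher at resolution than at baseline (18.5 to 175.8), from 440 and 4 UMIs. At resolution 2 osteoclast-like cells held 88.9% of the Mmp9 UMIs. The 43 osteoclast-like cells held 79.8% of the Ctsk UMIs at peak and the 56 at plateau held 92.8%. The fusion genes Dcstamp (0.506, 125.9, 196.8 and 3.29 CPM) and Ocstamp (0, 91.2, 168.2 and 2.20 CPM) had the same order of stages. Ocstamp was at least 60.0-fold higher at peak than the limit of 3 counts at baseline.

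From peak to plateau the osteoclast genes went higher still (median log2 ratio 0.55). Oscar, an osteoclast receptor for collagen, was 3.05-fold higher (24.8 to 75.5 CPM, 2.35 to 3.97), Car2, the carbonic anhydrase that supplies acid for bone resorption, 2.22-fold (59.2 to 131.7 CPM) and the creatine kinase gene Ckb 2.09-fold (907.3 to 1897 CPM). At resolution all 10 tested osteoclast genes were at least 2-fold lower than at plateau (median log2 ratio -5.56). Acp5 was 49.9-fold lower (46.5 to 53.7) and Oscar 344-fold lower, with 1 UMI left. Calcr, the calcitonin receptor gene, was never above 1.27 CPM.

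Tissue macrophage genes showed the opposite order, with 12 of 15 at least 2-fold lower at peak than at baseline (median log2 ratio -2.20) and 13 of 15 at least 2-fold higher at resolution than at plateau (1.66). Lyve1 stood at 1841, 201.2, 178.7 and 1366 CPM and Timd4 at 80.5, 5.89, 7.62 and 44.6 CPM over the 4 stages. In macrophage-like cells alone, which were fewer in these sums at peak and plateau, the medians were -0.50 from baseline to peak and -0.26 from plateau to resolution. Interferon response genes were higher at peak in 15 of 17 tested members (median log2 ratio 2.41) and oxidative phosphorylation genes in 8 of 15 (1.05), but the latter median was -0.24 in macrophage-like cells.

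Several large differences came from a handful of recipient cells. Camp, a granule peptide gene of neutrophils, had 6711 UMIs at baseline, 99.3% of them in 3 neutrophil-like cells, and S100a8 had 9743, 99.5% of them in the same class. Prg4, the lubricin gene of the joint lining, had 2233 UMIs at peak, 99.0% of them in 1 fibroblast-like cell, and 2288 at resolution, 98.3% of them again in 1 such cell. The mast cell protease gene Mcpt4 stood at 336.8, 787.3, 61.9 and 157.4 CPM and was 12.7-fold lower at plateau than at peak (10.99 to 14.8), with 9 mast-like cells at peak and 1 at plateau. The chymase gene Cma1 and the tryptase gene Tpsb2 had the same step, at 17.9-fold and 26.8-fold.

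The resolution sum differed from baseline in MHC class II and in genes of the Rnase2a cluster. Cd74, the invariant chain of MHC class II, stood at 376.3, 896.4, 252.0 and 2271 CPM, 6.04-fold higher at resolution than at baseline (5.60 to 6.51), and H2-Aa at 61.3, 240.0, 67.3 and 414.4 CPM. The 63 cells of the Rnase2a cluster held 50.4% of the Cd74 UMIs and 41.5% of the H2-Aa UMIs at resolution. They also held 94.8% of the Mmp12 UMIs (0 CPM at baseline, 55.1 at resolution) and 75.0% of those of the growth factor gene Areg (6.58 and 108.0 CPM). Of the Retnla UMIs at resolution they held 62.8%. The Retnla level itself was close at baseline and resolution, at 1003 and 955.4 CPM, with 34.1 at peak and 7.30 at plateau. At baseline 91.3% of the Retnla UMIs were in macrophage-like cells. The sort had selected against MHC class II protein. Apoe, the lipid carrier, was 6.25-fold lower at resolution than at baseline (286.6 against 1790 CPM, 5.86 to 6.66).

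All 18 of 18 tested hypoxia and glycolysis genes were above the baseline level at resolution, 4 of them by 2-fold or more (median log2 ratio 0.73 against 0.07 for all genes). Among all 9153 tested genes, 307 (3.35%) were higher by 2-fold or more. Egln1, the oxygen sensor that marks hypoxia-inducible factors for destruction, stood at 24.3 CPM at baseline and 95.3 at resolution, 3.92-fold higher (2.90 to 5.40). Ankrd37, a target of these factors, was 6.59-fold higher (9.62 to 63.5 CPM). The 63 cells of the Rnase2a cluster held 69.9% of the Ankrd37 UMIs at resolution. In macrophage-like cells the median was 0.49, with 15 of 16 members above the baseline level. There Egln1 stood at 29.9, 77.8, 33.5 and 98.7 CPM.

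Within macrophage-like recipient cells far fewer genes differed between stages. From baseline to peak 250 of 6342 tested genes (3.94%) were higher and 269 (4.24%) lower, and from peak to plateau 99 of 4726 (2.09%) were higher and 161 (3.41%) lower. From plateau to resolution 477 of 8018 (5.95%) were higher and 269 (3.35%) lower, and at resolution 214 of 8433 (2.54%) were higher and 109 (1.29%) lower than at baseline. These sums held 1352862, 523931, 537467 and 2995438 UMIs of 149, 70, 80 and 466 cells. At least 10 CD45.1 counts were found in 4, 11, 3 and 5 of these cells, the largest part at peak. What such cells add to the peak levels given below was not tested.

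Interferon response genes were higher at peak in these cells, with 7 of 9 tested members at least 2-fold higher than at baseline (median log2 ratio 3.61 against -0.04 for all genes). Isg15, a ubiquitin-like protein of the antiviral response, stood at 8.97, 113.8, 22.4 and 15.5 CPM. Irf7, a transcription factor of the interferon response, stood at 12.7, 58.8, 11.2 and 7.77 CPM, and Bst2, the membrane protein tetherin, at 121.8, 187.8, 173.2 and 92.6 CPM. A few cells carried much of the strongest changes: Rsad2 was 304.5-fold higher at peak (0.748 to 227.6 CPM), but 1 cell held 70.0% of its UMIs. For Ifit1 1 cell held 81.0% and for Ifit2 94.7%. From peak to plateau the list had a median of -2.24, with 5 of 8 members at least 2-fold lower.

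Chemokines and other inflammatory genes were mixed, with 5 of 11 tested members at least 2-fold higher at peak and 2 lower (median log2 ratio 0.47). Ccl8, a chemokine for monocytes, stood at 23.2, 874.4, 31.7 and 4.39 CPM, 37.7-fold higher at peak than at baseline (26.2 to 56.2), with 27.1% of the peak UMIs in 1 cell. Ccl7 stood at 166.7, 686.6, 311.1 and 119.6 CPM, Ccl2 at 311.0, 679.0, 204.9 and 207.5 CPM and Il1b, the interleukin-1 beta gene, at 88.9, 256.1, 76.4 and 25.4 CPM. All 4 were highest at peak. Tnf did not have this order, with 183.9, 60.7, 44.7 and 194.3 CPM, nor did Cxcl2, with 1251, 1362, 938.9 and 1741 CPM. Ccl4 was 59.7-fold lower at resolution than at baseline (5.75 against 343.1 CPM), where 1 cell held 74.1% of the UMIs.

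Genes for the uptake of dying cells and for repair did not move one way at peak. Of 16 tested members, 3 were at least 2-fold higher than at baseline and 2 lower, with 7 above and 9 below the baseline level (median log2 ratio -0.07). Single genes tied to damping, uptake or repair, some of them named after their values were seen, had their highest level at peak. The interleukin-1 receptor antagonist gene Il1rn stood at 1.495, 77.8, 27.9 and 2.03 CPM, with 2 UMIs at baseline and 41 at peak. The protease inhibitor gene Timp1 stood at 0.748, 92.9, 57.8 and 1.35 CPM, with 42.9% of the peak UMIs in 1 cell. Ctsk, which monocytes should lack, stood at 1.46 and 95.8 CPM at baseline and peak in the larger cluster of donor classical monocyte-like cells. The part of RNA from outside the cells in the peak levels was not tested. Arg1, the arginine-degrading enzyme of alternatively activated macrophages, stood at 14.2, 301.6, 231.0 and 151.7 CPM. Arg1 was still 10.7-fold higher at resolution than at baseline (6.76 to 17.9). The mannose receptor gene Mrc1 stood at 456.7, 993.9, 326.0 and 257.2 CPM, the inhibitory Fc receptor gene Fcgr2b at 152.5, 423.0, 186.3 and 136.5 CPM and the cathepsin gene Ctsb at 1224, 2659, 1909 and 981.4 CPM. Lower at peak than at baseline were Ccn2, a matrix growth factor (108.4 to 5.69 CPM, 19.1-fold), Retnla (1352 to 208.6 CPM, with 59.9% of the baseline UMIs in 1 cell) and the oxysterol receptor gene Gpr183 (278.1 to 77.8 CPM).

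Resident macrophage and lining genes were lower at peak than at baseline in part. Of 15 tissue macrophage genes, 2 were at least 2-fold lower and 3 higher (median log2 ratio -0.50), and of 8 lining macrophage genes 3 were lower (-0.84). Vsig4 stood at 1460, 808.0, 948.2 and 790.8 CPM, Lyve1 at 2598, 1220, 1049 and 1906 CPM and Timd4 at 114.4, 36.0, 44.7 and 64.6 CPM. None of the 3 was as high at any later stage as at baseline. Aqp1 (759.5, 497.0, 665.0 and 1109 CPM) and Fxyd2 (3913, 1430, 1883 and 6242 CPM), the leading genes of the other macrophage-like group, were instead highest at resolution. The Timd4 group held 81.9%, 68.1%, 62.8% and 54.9% of the recipient cells of the 2 groups over the 4 stages. The part of this mix in the gene levels was not tested. The complement gene C1qa stood at 5150, 4190, 5039 and 3280 CPM.

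MHC class II genes were lower at peak in 6 of 10 tested members (median log2 ratio -1.10) and higher again at plateau in 3 of 7 (0.72). The summed level of the list moved less at peak, at 3415, 3194, 4860 and 4037 CPM over the 4 stages. The counts behind the plateau step were small: H2-Aa had 19 UMIs at peak and 68 at plateau, in 10 of 80 cells. In donor macrophage-like cells the medians had the opposite sign, 0.74 and -1.94, from 32, 19 and 45 cells at baseline, peak and plateau. H2-Aa stood at 86.0, 36.0, 126.7 and 135.9 CPM in recipients and at 286.1, 1885, 199.8 and 274.8 CPM in donors. Cd74 stood at 429.8, 182.1, 521.6 and 862.1 CPM in recipients and at 1512, 5058, 1317 and 1502 CPM in donors. The sort for cells negative for MHC class II applied to both.

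Between plateau and resolution, Ctsc, the cathepsin that activates serine proteases, was 5.00-fold lower (1060 to 211.9 CPM, 4.46 to 5.61) and Clec4d, a receptor for fungal and mycobacterial lipids, 5.21-fold lower (255.2 to 49.0 CPM). Anxa8, an annexin, was 12.1-fold higher (22.4 to 271.4 CPM, 6.91 to 23.6). At resolution, Apoe was 9.496-fold lower than at baseline (262.9 against 2497 CPM, 8.78 to 10.3), with 1722 CPM at peak and 786.1 at plateau. Donor cells had Apoe at 622.5, 5212, 2675 and 357.5 CPM, with a maximum at peak that recipient cells did not show. Cx3cr1, the fractalkine receptor of lining macrophages, was 4.11-fold lower at resolution than at baseline (38.2 against 157.0 CPM), and Wfdc17, a protease inhibitor gene, 3.14-fold lower. The kinase gene Pim1 (129.3 to 337.6 CPM) and Spp1, the osteopontin gene (86.0 to 225.4 CPM), were higher. Spp1 was highest at plateau, at 1028 CPM, with 48.2% of its UMIs in 1 cell. Markers of classical monocytes summed to 2708, 5290, 4920 and 2714 CPM in these cells, highest at the 2 inflamed stages, and their part in the stage differences was not tested. One of them, Plac8, was 20.7-fold higher at peak than at baseline (8.97 to 185.9 CPM, 48.0% of the UMIs in 1 cell). The summed marker level of type 2 dendritic cells was 31.4, 91.0, 5.59 and 18.6 CPM, that of neutrophils was 11.2 to 113.6 CPM, that of fibroblasts 12.7 to 72.1 CPM and that of mast cells 0.676 to 11.4 CPM, against 17580 to 27980 CPM for macrophage markers, and basophil markers were at 0.

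**Figure D3:**
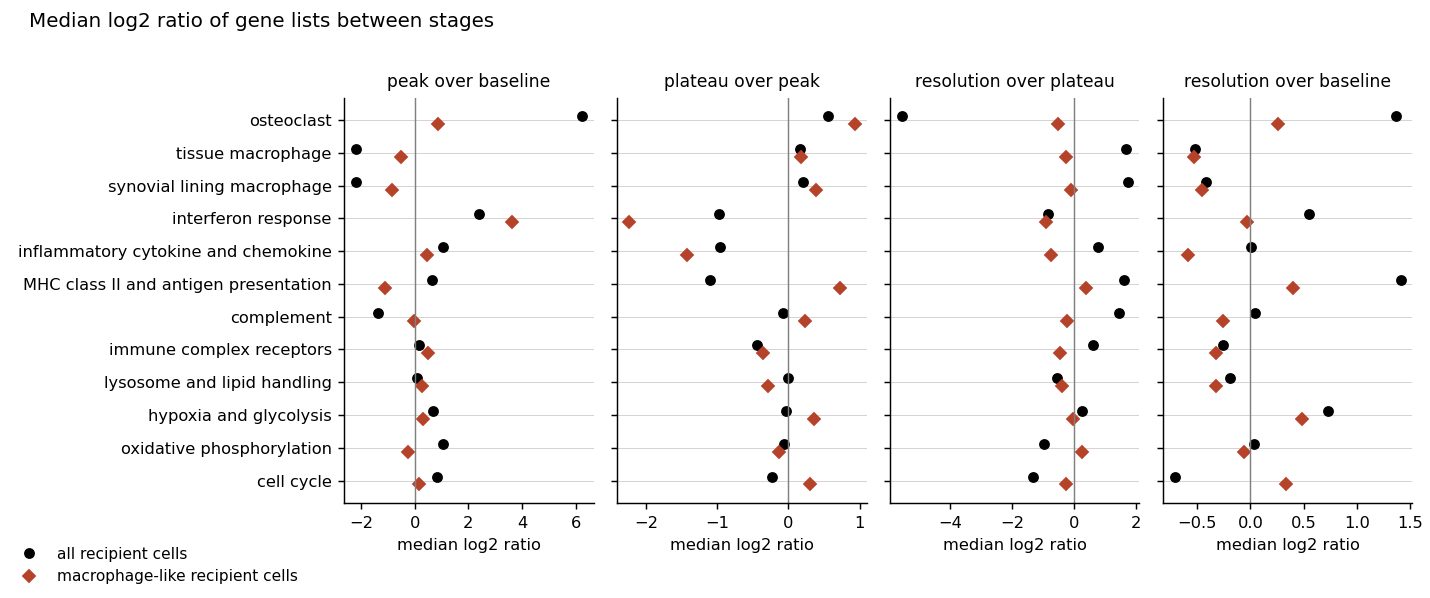
Median log2 ratio of 12 gene lists for 4 stage contrasts, in all recipient cells (black circles) and in macrophage-like recipient cells (red diamonds); the x axes differ between panels. The osteoclast list reaches 6.25 at peak against baseline in all recipient cells and 0.85 in macrophage-like cells, while the interferon list reaches 2.41 and 3.61.

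Surface antibodies also differed between the stages in the sum of all recipient cells. Antibody levels are UMIs per 1000 antibody UMIs, leaving out the CD45.1 and CD45.2 antibodies that chose the cells. From baseline to peak, 24 of 85 antibodies (28.2%) were at least 2-fold higher and 15 (17.6%) lower, and from peak to plateau 4 of 84 (4.76%) were higher and 13 (15.5%) lower. From plateau to resolution 25 of 85 (29.4%) were higher and 7 (8.24%) lower, and at resolution 30 of 85 (35.3%) were higher and 9 (10.6%) lower than at baseline. Unlike the gene counts, these counts were not smaller in macrophage-like cells alone for baseline against peak or resolution. There 24 of 84 antibodies (28.6%) were higher and 17 (20.2%) lower at peak, and 30 of 85 (35.3%) higher and 11 (12.9%) lower at resolution. The part of the cell types in the antibody changes was not tested. The baseline library gave no UMI for 10 antibodies in either origin, CD68, TLR4, P2Ry12 and CXCR5 among them, and these 4 are among those higher at peak and at resolution. CD68 is a protein of all macrophages, and no fold is given against these zeros. The antibody to all forms of CD45 gave no UMI in any library.

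CD61, the integrin chain that osteoclasts use to hold bone, stood at 1.2, 18.3, 50.9 and 3.87 per 1000, 15.2-fold higher at peak than at baseline (13.6 to 17.2). In macrophage-like cells CD61 stayed between 0.428 and 1.31 per 1000. CD71, the transferrin receptor, stood at 3.05, 44.8, 50.9 and 4.71, and CD14, the receptor for bacterial lipopolysaccharide, at 4.11, 38.5, 48.8 and 3.97. The mast cell and basophil receptor FceRIa stood at 1.16, 9.65, 0.973 and 3.10, highest at peak, where 9 mast-like and 4 basophil-like recipient cells were found.

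Macrophage-like recipient cells had their own surface changes. The scavenger receptor CD163 stood at 202.7, 368.2, 198.0 and 212.5 per 1000, 1.82-fold higher at peak than at baseline (1.79 to 1.84), and Tim4 at 15.6, 48.3, 27.9 and 32.0, 3.09-fold higher (2.96 to 3.23). The Tim4 antibody was thus highest at the stage at which Timd4 RNA was lowest. CD14 stood at 4.80, 36.5, 45.0 and 4.51, the adhesion molecule CD54 at 17.3, 26.2, 56.2 and 13.6 and Mac-2, the lectin galectin-3, at 4.41, 15.3, 28.6 and 10.1. These 3 were highest at plateau. FrB, the folate receptor beta, stood at 66.3, 64.2, 80.0 and 51.1 in recipient cells and at 65.5, 66.3, 31.9 and 28.7 in donor cells, close at baseline and peak and higher in recipients at plateau and resolution.

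Other surface proteins of these cells were lowest at the inflamed stages. VISTA, an inhibitory ligand for T cells, stood at 36.5, 9.92, 18.5 and 25.8 per 1000, the complement C5a receptor CD88 at 69.0, 18.6, 14.6 and 38.5 and CD253, the death ligand TRAIL, at 7.58, 1.08, 1.38 and 5.38. The sorting antigen CD11b stood at 346.8, 162.5, 219.6 and 300.1. Since each level is a share of all antibody UMIs, a high antibody lowers the others. Antibodies to the negative sorting antigens were low: Ly6C stood at 4.03, 3.08, 1.73 and 0.947 per 1000 and CD64 at 2.34, 3.16, 0.732 and 0.734. The MHC class II antibody I-A-I-E stood at 7.29, 9.76, 18.0 and 14.97 in recipient cells and at 69.6, 140.0, 37.2 and 47.6 in donor cells. In recipient cells this antibody was thus higher at peak than at baseline, while most tested MHC class II genes were lower in RNA. The T cell antibodies CD4 and CD8a were highest at resolution in both origins, CD4 at 3.89 in recipient and 5.71 in donor macrophage-like cells against 0.481 and 0.370 at baseline, while T cell marker genes were at most 0.748 CPM in the recipient cells.

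**Figure D4:**
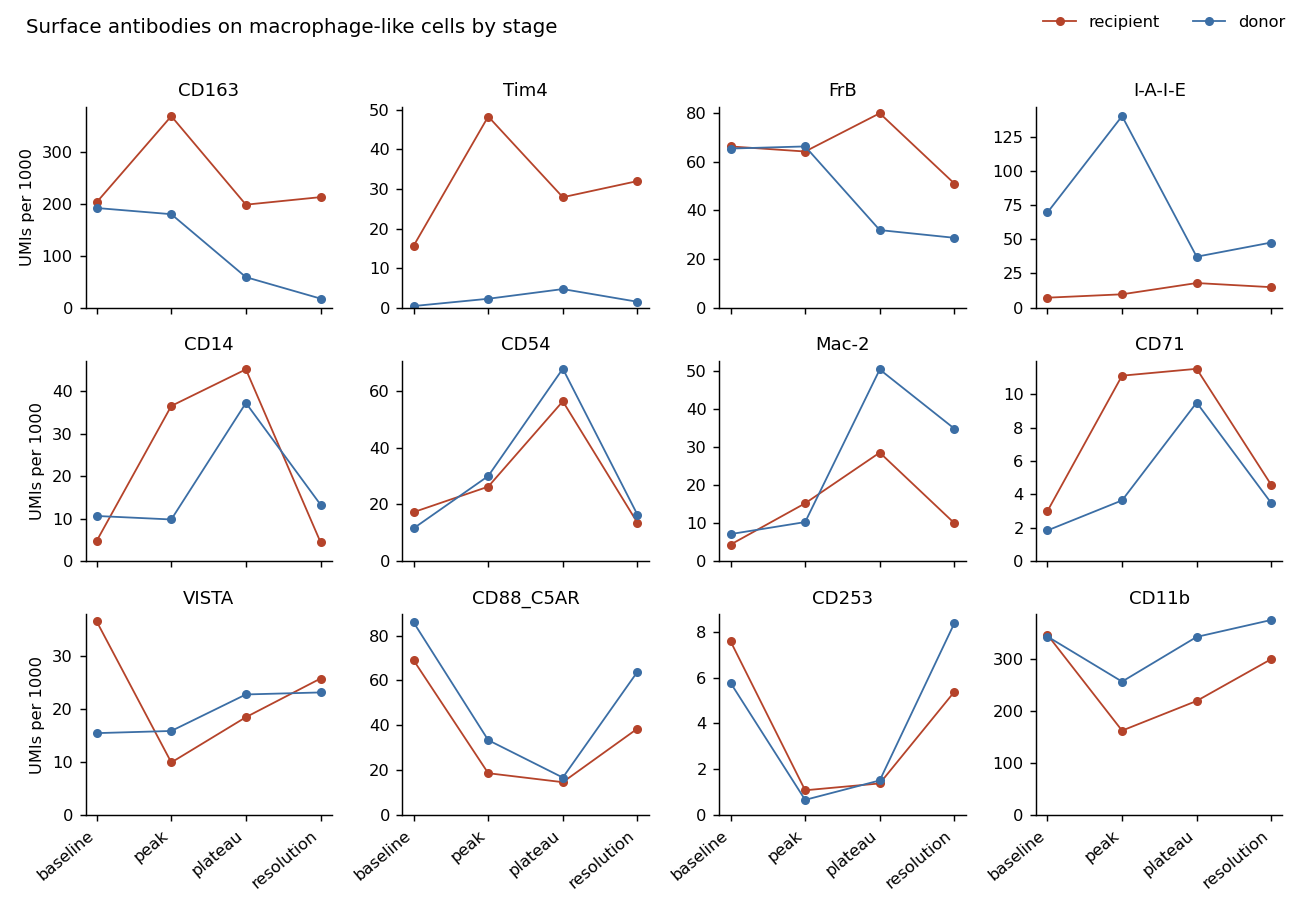
Levels of 12 surface antibodies in UMIs per 1000 antibody UMIs, in macrophage-like recipient and donor cells at the 4 stages; each panel starts at 0 and the y axes differ. Tim4 is 15.6 to 48.3 in recipient cells and 0.407 to 4.70 in donor cells, and the MHC class II antibody is lower in recipient cells at every stage.

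Recipient and donor cells could be compared by a test, because each of the 4 libraries held both. The edgeR quasi-likelihood test with the library as a block treats the stages as replicates of the origin difference, so its p-values measure the spread between these 4 libraries. They were adjusted by Benjamini and Hochberg over all genes tested. A difference that appears in 1 stage alone is not what it measures. Of 10979 genes, 687 (6.26%) were higher in recipient cells and 1058 (9.64%) lower at an adjusted p of 0.05, and 1739 of these 1745 lay on the same side in all 4 libraries. With plain totals the split was 904 higher and 687 lower. Of the 1745 genes, 546 passed without each library in turn. The counts were 433 and 665 without baseline, 213 and 390 without peak, and 430 and 571 without plateau.

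The genes highest in recipient cells were those of mast cells and of resident macrophages. Mcpt4 was 336.8, 787.3, 61.9 and 157.4 CPM in recipients and at most 0.585 CPM in donors (log2 difference with 0.5 counts added 9.67 ± 2.28, SD, 4 libraries, edgeR adjusted p = 0.00178), and Tpsb2 and Cpa3, further mast cell proteases, had the same pattern. Vsig4 was 992.1, 134.0, 162.8 and 515.1 CPM in recipients against 0.761, 0.636, 0.901 and 9.28 in donors (7.79 ± 1.83, adjusted p = 0.00258). Of 15 tissue macrophage genes, 10 were higher in recipients and none lower (median log2 fold change 2.67 against -0.03 for all genes), and of 8 lining genes 5 were higher and 1 lower. The recipient and donor cells of this comparison differ in cell classes, with macrophage-like cells at 36.6% to 84.7% and 0.347% to 27.2%.

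Monocyte genes were lower in recipient cells, with 10 of 11 nonclassical and 7 of 10 classical monocyte genes past the test and none on the other side. Ccr2 was 39.5, 117.2, 49.5 and 64.8 CPM in recipients and 718.4, 1153, 489.2 and 420.0 in donors (-3.37 ± 0.61, adjusted p = 0.00185). MHC class II genes were lower in 7 of 11, interferon response genes in 10 of 21 and inflammatory genes in 5 of 19, with none higher. Of all 10979 genes, 1058 (9.64%) were lower. The part of the cell classes in these counts was not tested. In macrophage-like cells none of 4 tested interferon response genes passed on either side (median log2 fold change 0.09). The largest drop was that of the chemokine gene Ccl5 (at most 1.01 CPM in recipients, 2.92 to 169.7 in donors). Ctsk was higher in recipients in 4 of 4 libraries but did not pass (2.00 ± 2.62, adjusted p = 0.24), and Isg15 was lower in 4 of 4 and did not pass either (adjusted p = 0.0867).

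Restricted to macrophage-like cells, the same test gave a shorter list. Of 5999 genes, 167 (2.78%) were higher in recipient cells and 101 (1.68%) lower, 261 of the 268 on the same side in 4 of 4 libraries. The donor side of this fit held 32, 19, 45 and 759 cells. Without resolution the test called 84 higher and 65 lower, and 111 of the 268 genes passed without each library in turn. The mix of the Timd4 and Aqp1 groups given above differed between the origins in this fit too.

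Timd4 and Vsig4 were among the genes furthest apart between the origins. In recipients Timd4 was 114.4 CPM at baseline (exact interval 97.0 to 134.0) and 36.0 at peak (21.7 to 56.3). At plateau it was 44.7 (28.6 to 66.5), and resolution cells had 64.6 (55.7 to 74.4). In donors it was 0, 0, 0 and 0.953 CPM. The log2 difference was 5.07 ± 1.10 (SD, 4 libraries, adjusted p = 5.41e-07). A Timd4 UMI was seen in 73 of 149, 11 of 70, 13 of 80 and 120 of 466 recipient cells. Classical monocyte-like cells of both origins, which should lack the gene, had none in 310, 1759, 214 and 464 cells, at median depths of 8612.5, 8659, 6776 and 4741 UMIs against 8272, 6311, 5647 and 5780.5 in the recipient cells. The Tim4 antibody had the same direction at every stage, with 15.6, 48.3, 27.9 and 32.0 per 1000 in recipients and 0.407, 2.25, 4.70 and 1.49 in donors. Vsig4 was 1460, 808.0, 948.2 and 790.8 CPM in recipients and 0, 0, 43.7 and 33.3 in donors (6.64 ± 2.57, adjusted p = 2.97e-06).

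Further tissue macrophage genes passed in the same direction, 7 of 15 with none lower (median log2 fold change 0.75 against -0.01 for all genes). Lyve1 was 2598, 1220, 1049 and 1906 CPM in recipients and 603.2, 73.7, 40.6 and 468.2 in donors (3.19 ± 1.33, adjusted p = 0.000142). Folr2 was 900.8, 635.4, 774.9 and 584.0 CPM against 170.1, 221.0, 193.5 and 193.9 (1.87 ± 0.41, adjusted p = 8.21e-06). C1qa was less far apart, at 5150, 4190, 5039 and 3280 CPM against 1898, 2664, 2828 and 2680 (adjusted p = 0.00735). Cd163 was 192.9, 443.8, 145.3 and 213.2 CPM against 201.1, 257.8, 43.7 and 22.4 and did not pass (adjusted p = 0.0734), and neither did Mrc1 (adjusted p = 0.927), Mertk (0.164) or Adgre1, the F4/80 gene (0.761).

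The matrix genes Pcolce2 and Sparc were higher in recipient cells, but of 8 tested members of the matrix remodelling list 1 was higher and none lower (median log2 fold change -0.26). Pcolce2, an enhancer of collagen processing, was 162.2, 75.9, 89.4 and 102.1 CPM in recipients and 0, 0, 0 and 1.67 in donors (5.68 ± 0.74, adjusted p = 2.25e-07). Sparc, a collagen-binding matrix protein, was 1381, 523.5, 432.2 and 512.7 CPM against 0, 36.8, 40.6 and 46.4 (5.01 ± 2.99, adjusted p = 3.48e-05). Retnla and Arg1, both genes of alternatively activated macrophages, were higher in 4 of 4 libraries (adjusted p = 1.74e-05 and 0.000617), although 1 recipient cell held 59.9% of the Retnla UMIs at baseline. Amotl1, Cpne8, Xlr, Tcim, Colec12 and Mxra8 completed the 10 highest genes. Among genes for the uptake of dying cells, 5 of 16 were higher and 1 lower (median 0.73), and Gas6, the bridge between dying cells and their receptors, was higher in 3 of 4 libraries (429.1, 371.8, 316.7 and 382.9 CPM against 174.0, 399.0, 106.1 and 152.2, adjusted p = 0.0191, but 0.0882 without plateau and 0.201 without resolution).

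Fewer genes were lower in recipient macrophage-like cells, Ccr2 and Cd74 among them. The monocyte lists did not move that way as a whole: of 6 classical monocyte genes 3 were higher and 1 lower (median log2 fold change 0.17), and of 3 nonclassical ones none passed. Ccr2 was 6.73, 51.2, 16.8 and 22.0 CPM in recipients and 406.0, 515.6, 252.9 and 139.1 in donors (-3.91 ± 1.38, adjusted p = 2.5e-05). Emb, a cell adhesion gene, was 5.98, 32.2, 7.45 and 3.72 CPM against 73.5, 190.3, 84.3 and 53.4 (-3.31 ± 0.54, adjusted p = 4.1e-06). Of 10 MHC class II genes 4 were lower (median log2 fold change -1.70), Cd74 among them (-2.18 ± 1.78, adjusted p = 0.0219), while H2-Aa was lower in 4 of 4 libraries but did not pass (adjusted p = 0.0541). The adhesion and trafficking list had 5 of 14 lower and 1 higher, led by the gut-homing integrin gene Itgb7 (-3.17 ± 0.84, adjusted p = 9.25e-06). Ramp1, Napsa, Plbd1, Cd24a, Olfm1 and Cd93 completed the 10 lowest.

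Inflammatory genes that passed the test of origin within the macrophage-like cells were all lower in recipients. Of 12 tested, 2 were lower and none higher (median log2 fold change -0.60 against -0.01 for all genes), while 101 of all 5999 genes (1.68%) were lower. The 2 were Cxcl2 (1251, 1362, 938.9 and 1741 CPM against 2819, 2216, 2722 and 1992, adjusted p = 0.00789) and Osm, an interleukin-6 family cytokine (5.23, 36.0, 33.5 and 5.41 CPM against 11.6, 36.8, 99.9 and 16.0, adjusted p = 0.0186, but 0.252 without plateau and 0.24 without resolution). Isg15 was highest at peak in both origins, at 113.8 CPM in recipients and 79.8 in donors, as was Ccl8, at 874.4 and 1007 CPM, and Mrc1, at 993.9 and 1074 CPM.

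**Figure D5:**
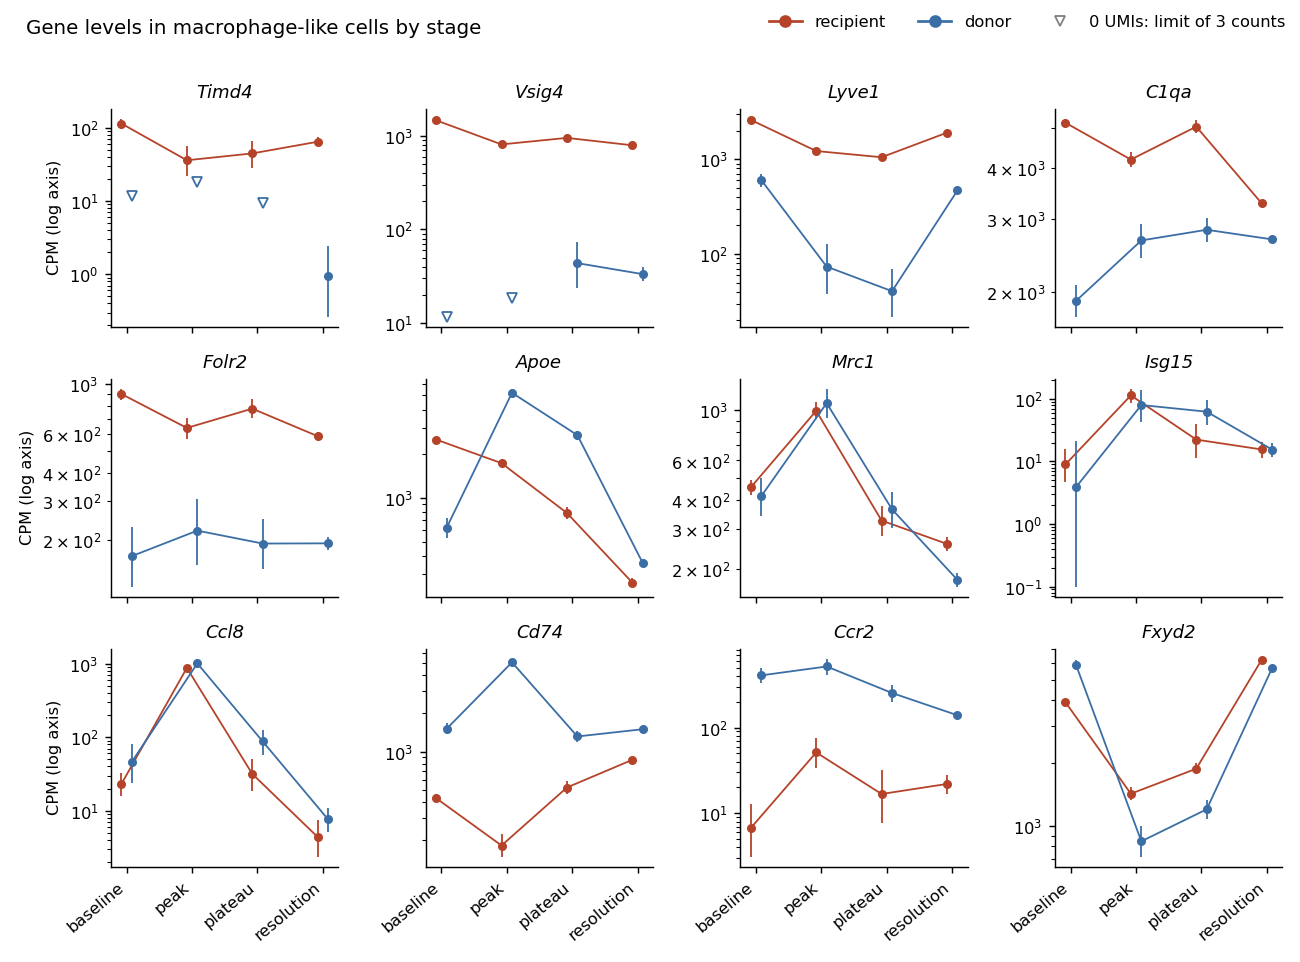
Levels of 12 genes in macrophage-like recipient and donor cells at the 4 stages, in CPM on a log axis, with exact 95% Poisson intervals as bars and open triangles at the limit of 3 counts where no UMI was seen. Timd4, Vsig4, Lyve1 and Folr2 are higher in recipient cells at every stage, and Ccr2 and Cd74 are higher in donor cells at every stage.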

How the data were processed

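The authors deposited UMI counts of 32285 genes and 92 antibodies for each cell barcode of 4 libraries, 1 per arthritis stage. The submitters' processing notes name Cell Ranger 6.1.2, Seurat 4.4.0 and the build mm10, without saying what each step did. Counts were used as deposited and summed over the cells of an origin or class in each library. Kept cells numbered 1071, 5941, 2828 and 4611, and recipient sums held 1668564 to 4020670 gene UMIs. The members and all gene lists were chosen with earlier results of these data known.

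Cells were clustered in scanpy 1.11.5 (2000 variable genes, 30 components, Leiden resolution 0.8) with Python 3.11.15. Stage contrasts are ratios of TMM-scaled CPM with exact conditional binomial intervals and no test. Origin was tested with edgeR 4.0.16 in R 4.3.3 by the quasi-likelihood test with a library block, which pairs recipient and donor cells of the same library. Genes were named by rank: the 10 highest and 10 lowest per contrast among genes that reached 50 CPM in either library and held 30 UMIs or more, and 2 members of each list. The 6 highest and lowest antibodies per contrast were ranked likewise. Further genes were named after their values were seen. On simulated data, the test recovered 46.4% of genes changed by a log2 value of 1 and 96.7% at 2, and 2.9% of its calls there (10979 genes) were false. The simulation gave all genes the same dispersion (0.0653) and left most genes equal in the 2 origins. Its false share therefore does not describe the calls given above, where the origins differ in cell classes. No isotype control antibody was found, so an alternative that needed one was not run. A few items are not reported here.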

Additional observations from a re-analysis of the deposited data

Results flagged for a closer look

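Recipient and donor cells had opposite signs for the same stage contrast in 18 of 56 medians of 14 lists in all cells and in 18 of 56 in macrophage-like cells. The 8 given here were at least 0.5 in size in both origins, and lists of other cell types were not screened. In each case the difference was not tested, because each stage is 1 library. In all cells, tissue macrophage genes had a median log2 ratio of -0.52 in recipients and 2.52 in donors at resolution against baseline, and interferon response genes of 0.55 and -1.97. Complement genes stood at -1.37 in recipients and 0.70 in donors at peak against baseline, and cell cycle genes at 0.82 and -2.51. Inflammatory genes stood at 0.76 and -0.89 at resolution against plateau. In macrophage-like cells, tissue macrophage genes stood at -0.50 in recipients and 0.67 in donors at peak against baseline. MHC class II genes stood at -1.10 and 0.74 in the same contrast, and at 0.72 and -1.94 at plateau against peak.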

How the results depend on the processing

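Other cell filters, origin rules and scalings kept the order of the recipient shares of kept cells, with 3 larger moves: 5.84% at plateau with at most 5% mitochondrial counts, and 10.3% and 11.9% at resolution with at least 10 CD45.2 counts or a 4-fold antibody ratio. Among cells with an origin, resolution moved from below baseline to above it under these rules, at 26.6% against 21.8% and at 19.4% against 19.1%. With antibody counts thinned to 200 per cell, resolution stayed below baseline, at 20.4% against 26.4%. The recipient share of macrophage-like cells at resolution was 57.3% under the strict antibody rule and 43.9% with antibody counts thinned to 200. The number of genes 2-fold apart depended most on the minimum count and the cell classes. Peak against baseline gave 2011 genes in all recipients, 5158 with no minimum, 612 in monocyte-lineage cells, 519 in macrophage-like cells and 1252 without osteoclast-like cells. Plateau against peak gave 400, with 3687 with no minimum, 831 by the mean over cells and 260 in macrophage-like cells. Resolution against plateau gave 2753, with 7042, 1739, 763 in monocyte-lineage, 746 in macrophage-like and 1398 without osteoclast-like cells. Resolution against baseline gave 472, or 3174 with no minimum. Of 56 medians of 14 lists, 7 changed sign with plain totals, 10 by the mean over cells, 16 in monocyte-lineage and 19 in macrophage-like cells. Of those at least 2-fold in size, 5 lists reversed: at resolution against plateau, tissue macrophage genes (-0.29 in monocyte-lineage, -0.26 in macrophage-like cells), lining genes (-0.12 and -0.093) and complement genes (-0.29 and -0.23), MHC class II at plateau against peak (0.72 in macrophage-like cells) and oxidative phosphorylation at peak against baseline (-0.17 and -0.24). Smaller medians that turned include inflammatory genes at resolution against plateau (0.76 to -0.70 by the mean over cells and -0.76 in macrophage-like cells) and MHC class II at peak against baseline (0.64 to -1.10 in macrophage-like cells). Fewer cells of other classes enter these sums by construction, and further causes were not tested.

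The origin test called 687 genes higher in recipient cells. It called 154 with no replicate block for the library, 213 to 553 without each library in turn, 1567 in monocyte-lineage cells, 167 in macrophage-like cells and 1082 by DESeq2. Of lower genes it called 1058, against 687 with plain totals, 239 with no replicate block, 390 to 881 without each library, 1664 in monocyte-lineage and 101 in macrophage-like cells. In macrophage-like cells, the 167 higher and 101 lower genes became 51 and 29 with no replicate block, and 84 to 204 and 65 to 121 without each library. The depth of donor macrophage-like cells (158977 UMIs of 19 cells at peak) limits low genes.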
